A study of Mus musculus with 4 samples.

Results

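TLE3 binding was compared between brown adipocytes (BAT) and epididymal white adipocytes (eWAT) grown in culture from mouse fat depots, using chromatin immunoprecipitation followed by sequencing (ChIP-seq). The lists of TLE3 regions deposited for eWAT, inguinal white (iWAT) and BAT adipocytes were joined by region name, and every region on the BAT or the eWAT list was kept. That gave 54193 of the 69599 joined regions, each 230 bp long, with 15042 on the BAT list and 51015 on the eWAT list. All 3 kinds of adipocyte came from the stromal-vascular cells of male NMRI mice 4 to 5 weeks old, with 10 to 15 mice pooled for a preparation. The BAT cells pooled interscapular, cervical and axillary fat, and the eWAT cells came from epididymal fat. The cultures were differentiated in medium with 10% newborn calf serum, 30 nM insulin and 1 µM rosiglitazone, a drug that activates the nuclear receptor PPARγ. They were harvested on day 8, when over 50% of the cells were said to have differentiated. Proteins were cross-linked first by disuccinimidyl glutarate (2 mM, 15 minutes) and then by formaldehyde (1%, 30 minutes), and a commercial antibody pulled TLE3 down. Each depot gave 1 TLE3 library, and the only input came from iWAT cells. Depot and library therefore cannot be told apart, there is no test between depots, and every interval covers counting error in these libraries only.

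TLE3 is a Groucho-family corepressor. It has no DNA-binding domain of its own and reaches chromatin through DNA-bound factors, among them PPARγ and TCF proteins. In fat it is known as a partner of PPARγ that favours lipid storage genes and opposes the thermogenic programme driven by PRDM16 and EBF2. Binding measured by ChIP-seq says where the protein was cross-linked, not how much RNA a gene made. In a bulk culture, fewer cells with a bound site and weaker binding in each cell cannot be told apart.

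A small number of the regions that differed lay on promoters, and the sequences of some of these promoters are given here. Shown are the promoters of 3 genes in each direction, among genes that were themselves called (defined below) and had a matched promoter sequence. In each, a called region lay within 250 bp before or 50 bp after the start site. The 3 were those whose region stood farthest from equality among these genes. The promoter of Camp follows, which was added after its values were seen. Each line gives the 250 bases upstream of the RefSeq start site (RefSeq, GRCm38.p6), 5′ to 3′, with capitals for a match to the C/EBP letters TTGCNNAA on either strand. The first 3 had more TLE3 in BAT relative to eWAT, the next 3 less, and Camp more.
Stam2 (chr2:52742150-52742399, minus strand): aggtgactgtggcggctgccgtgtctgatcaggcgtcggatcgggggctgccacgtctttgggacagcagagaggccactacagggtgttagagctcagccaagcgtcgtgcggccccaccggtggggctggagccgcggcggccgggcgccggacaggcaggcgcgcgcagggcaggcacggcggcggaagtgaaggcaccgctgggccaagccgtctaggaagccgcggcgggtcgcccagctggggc
Tdrd3 (chr14:87416333-87416582, plus strand): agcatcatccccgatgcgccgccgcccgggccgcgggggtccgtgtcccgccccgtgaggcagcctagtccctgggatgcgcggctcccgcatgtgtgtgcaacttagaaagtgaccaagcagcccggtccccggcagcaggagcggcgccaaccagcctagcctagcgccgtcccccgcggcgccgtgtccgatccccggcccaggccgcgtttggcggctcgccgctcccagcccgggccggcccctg
Snrnp35 (chr5:124482905-124483154, plus strand): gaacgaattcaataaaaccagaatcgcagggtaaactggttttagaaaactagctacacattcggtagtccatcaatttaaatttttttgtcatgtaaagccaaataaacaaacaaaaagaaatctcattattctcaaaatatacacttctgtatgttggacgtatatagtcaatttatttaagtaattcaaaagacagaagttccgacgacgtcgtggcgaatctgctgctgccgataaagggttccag
1700011C11Rik (chr7:71960925-71961174, plus strand): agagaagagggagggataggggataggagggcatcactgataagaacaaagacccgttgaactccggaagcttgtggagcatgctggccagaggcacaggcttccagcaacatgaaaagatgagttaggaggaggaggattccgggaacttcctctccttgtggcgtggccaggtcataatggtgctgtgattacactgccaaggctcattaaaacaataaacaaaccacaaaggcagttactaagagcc
Clec12a (chr6:129349994-129350243, plus strand): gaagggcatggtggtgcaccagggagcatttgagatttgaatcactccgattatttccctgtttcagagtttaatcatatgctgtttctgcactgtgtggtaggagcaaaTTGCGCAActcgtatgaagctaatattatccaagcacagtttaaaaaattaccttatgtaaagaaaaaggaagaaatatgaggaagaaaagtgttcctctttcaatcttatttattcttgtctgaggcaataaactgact
Olr1 (chr6:129507166-129507415, minus strand): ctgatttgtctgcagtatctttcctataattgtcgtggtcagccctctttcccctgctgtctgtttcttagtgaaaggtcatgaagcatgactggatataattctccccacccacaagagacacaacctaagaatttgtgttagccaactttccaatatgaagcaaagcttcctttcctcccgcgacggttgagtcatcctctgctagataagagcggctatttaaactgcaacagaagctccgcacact
Camp (chr9:109849457-109849706, minus strand): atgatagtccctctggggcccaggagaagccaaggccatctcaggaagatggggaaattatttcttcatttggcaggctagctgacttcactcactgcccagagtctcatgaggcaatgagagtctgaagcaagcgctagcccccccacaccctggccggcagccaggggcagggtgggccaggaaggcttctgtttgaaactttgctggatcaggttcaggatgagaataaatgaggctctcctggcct

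Stam2 encodes an adaptor of endosomal sorting and Tdrd3 a Tudor-domain protein, and both promoters were dense in CpG, with 28 and 32 CpG sites and a GC content of 72.8% and 75.2%. TLE3 at the Stam2 promoter region was 24.9 scaled reads in BAT against 0 in eWAT, with 2.1 in iWAT. At Tdrd3 it was 22.1 in BAT against 0 in eWAT, with 0.53 in iWAT. Snrnp35, which encodes a protein of the minor spliceosome, had an AT-rich promoter (34.8% GC) and 36.0 scaled reads in BAT against 10.6 in eWAT, with 10.5 in iWAT. On the other side, Clec12a, a lectin receptor of myeloid cells, had 0 in BAT against 69.8 in eWAT, with 20.5 in iWAT, and 1 C/EBP match lay 140 bases before the start. Olr1, a scavenger receptor for oxidised lipoprotein, had 13.8 in BAT against 177 in eWAT, with 116 in iWAT. The uncharacterised gene 1700011C11Rik had 0 in BAT against 69.8 in eWAT, with 58.3 in iWAT. Camp, which encodes the antimicrobial peptide cathelicidin, had one of the strongest regions of both libraries on its promoter, at 434 scaled reads in BAT against 388 in eWAT, with 232 in iWAT.

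The scaled read is the deposited unit. 1 sequenced read was worth 2.77 scaled reads in BAT and 0.883 in eWAT, so the same scaled value rests on fewer reads in BAT. If the libraries were scaled to 10 M reads, BAT had 3.62 M, eWAT 11.3 M, iWAT 19.0 M and the input 15.4 M. The share of a library's reads that fell in the compared regions was 9.36% for BAT, 24.6% for eWAT, 21.1% for iWAT and 0.929% for the input. Their median was 8.3 scaled reads in BAT, 33.6 in eWAT, 27.3 in iWAT and 1.3 in the input, and 16.5% of them had 0 reads in BAT. A floor of 3 reads corresponds to 8.30 scaled reads in BAT and 2.65 in eWAT. TLE3 in BAT was thus lower at most regions on the deposited scale, and whether that is weaker binding throughout or a poorer enrichment of that library cannot be told apart.

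Directions below are therefore relative. Among regions, the log2 ratio of BAT over eWAT was centred on the median of the strongest 25%, which was -1.38 (2.61-fold lower in BAT). Among genes, the scaled reads of all regions within 50 kb that name the gene as nearest were summed, and the ratio was centred on the median gene, at -1.57 (2.97-fold lower in BAT). A region or gene was called higher or lower where the centred ratio passed 2-fold and its exact 95% interval lay on one side of 0. A gene called higher with a centred log2 ratio below 1.57 had fewer scaled reads in BAT than in eWAT, so the direction of those genes, 591 of the 985 called higher, flips on the deposited scale.

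Most BAT regions were also eWAT regions, but not the reverse. Of the BAT list, 78.9% (Wilson 95% interval 78.2 to 79.5) was on the eWAT list, and of the eWAT list 23.3% (22.9 to 23.6) was on the BAT list, with 11864 regions in common. A region entered either list only with at least 15 scaled reads and 10 times the input. That minimum was 6 reads in BAT and 17 in eWAT, so the list sizes do not compare the depots. Ranking regions within each library needs no scaling. The strongest 1000 regions of BAT and of eWAT shared 430, or 43.0% of each. The strongest 1000 of BAT had a median percentile of 97.5 in eWAT, and 45 of them lay below the eWAT median. The strongest 1000 of eWAT had a median percentile of 97.4 in BAT, and 29 lay below the BAT median. Over all 54193 regions Spearman's rho between the libraries was 0.42, a description over regions that share libraries and differ in depth.

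The single highest regions of either library stood high in both. In BAT the highest value was 738 scaled reads, at chr6:90451552-90451782 (mm9), 39.0 kb downstream of the start of Klf15, a transcription factor of lipid and amino acid metabolism; it was 187 in eWAT and 179 in iWAT. It was followed by an intron of Phex, a membrane peptidase gene, with 677 in BAT and 348 in eWAT, and by a region near 1700049E22Rik, with 606 and 279. A region at the transcript end of Fam195b had 570 in BAT and 171 in eWAT. An intron of Tasp1, which encodes a protease, was the highest region of eWAT with 433 and among the highest 5 of BAT with 567. Each of these had more scaled reads in BAT than in eWAT although the median region had fewer. The next eWAT regions after Tasp1 and Camp lay near Mboat2 (216 in BAT, 376 in eWAT), Myo18a (230 and 370) and Cachd1 (232 and 368), and none of these 3 was called.

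**Figure D1:**
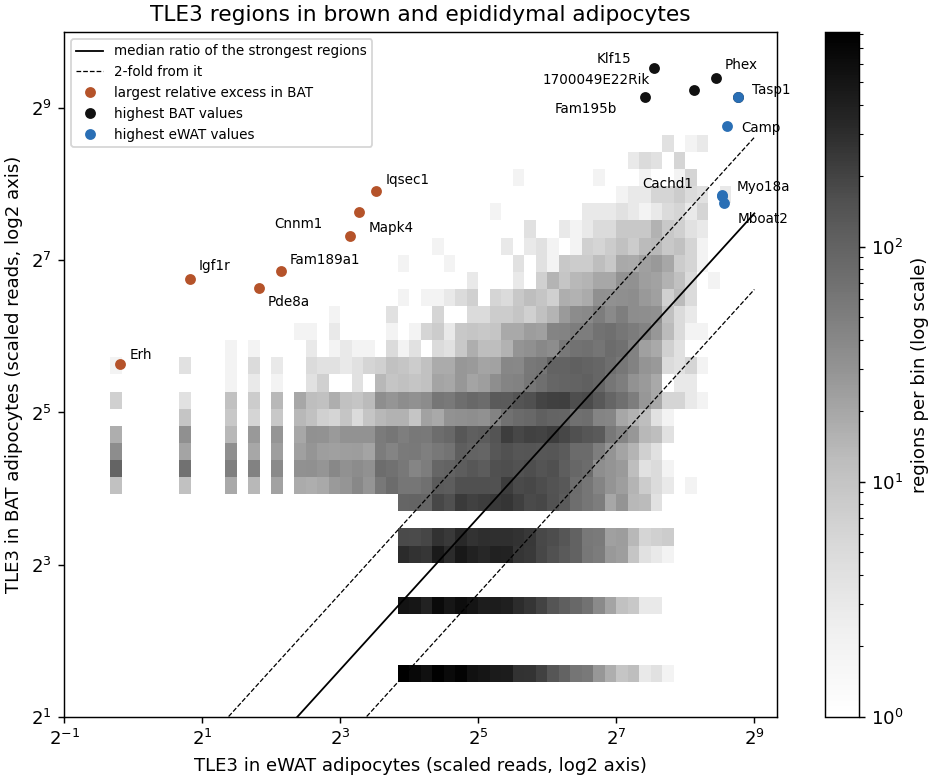
TLE3 scaled reads in BAT against eWAT on log2 axes for the 45007 regions with at least 1 read in both libraries, as grey bins of region counts; the 9186 with 0 reads in 1 library are not drawn. The solid line is the median ratio of the strongest regions and the dashed lines lie 2-fold from it. The named regions of Klf15, Phex and Tasp1 sit at the upper right in both libraries, while those of Igf1r and Iqsec1 are high in BAT and low in eWAT; horizontal stripes at the bottom are 1 and 2 BAT reads.

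By the call rule, 6444 of 54193 regions (11.9%) were higher in BAT and 4898 (9.04%) were lower. The higher regions had a median of 30.4 scaled reads in BAT against 19.4 in eWAT, with 25.2 in iWAT. The lower ones had 2.77 in BAT against 69.8 in eWAT, with 39.9 in iWAT, and 1105 of them had no BAT read. Of the higher regions, 3273 were on both lists and 3127 on the BAT list alone. All but 133 of the lower regions were on the eWAT list alone. Lower calls need eWAT depth: none was made in the 4 weakest deciles of regions, and 13.7% to 19.9% of the 5 strongest deciles were called lower. Higher calls ran from 6.22% in the weakest decile to 18.6% in the strongest. The centred median moved with strength too, from -0.46 in the sixth decile to 0.20 in the strongest.

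**Figure D2:**
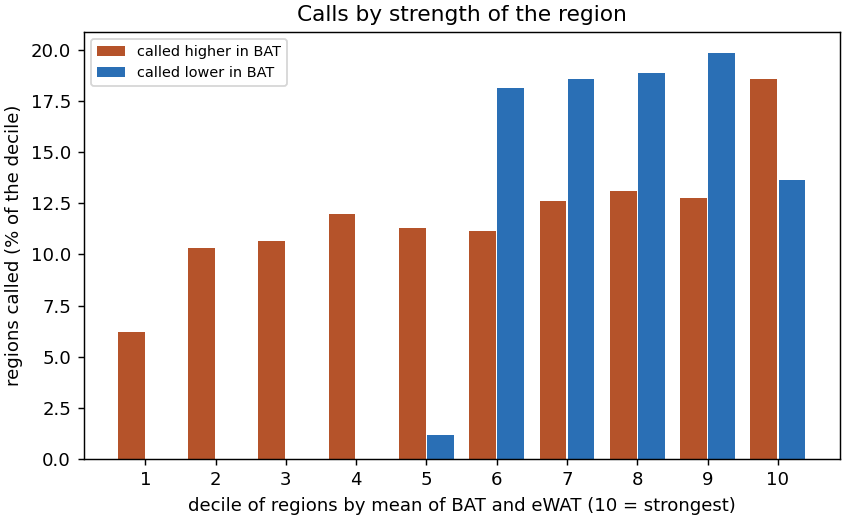
Share of regions called higher (brown) or lower (blue) in BAT in each decile of the 54193 regions ordered by the mean of BAT and eWAT. Bars start at 0 and each decile holds 5097 to 5582 regions; lower calls are at 0% in the first 4 deciles, and in the strongest decile 18.6% were higher and 13.7% lower.

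Start sites took a larger share of the regions higher in BAT. Of them 4.73% (Wilson 95% interval 4.24 to 5.28) lay within 1 kb of a start, against 3.16% (2.71 to 3.69) of the lower regions and 3.38% of all. By the deposited annotation 3.46% of the higher, 2.18% of the lower and 2.39% of all regions were promoter-TSS regions. Most of each class lay elsewhere, with 43.9% of the higher and 43.4% of the lower regions in introns and 49.4% and 51.4% between genes. The median distance to the nearest start was 36.0 kb for higher and 35.5 kb for lower regions. In the window from 250 bp before to 50 bp after a start, 114 genes had a higher and 53 a lower region. The higher ones had a median of 30.4 scaled reads in BAT (11 reads), 10.6 in eWAT and 9.46 in iWAT. The lower ones had 2.77 in BAT (1 read), 65.4 in eWAT and 34.2 in iWAT. A higher call asks for a low eWAT value relative to BAT, so only the iWAT values lie outside the choice of these regions.

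Over all promoters of these groups GC content differed, while the intervals of higher and lower promoters overlapped for every motif searched. Promoters were matched by symbol to genes with 1 entry in the RefSeq table, which left 54 higher and 30 lower. Median GC content was 64.0% for the higher and 46.4% for the lower promoters, against 52.0% over 22862 promoters, and the median number of CpG sites was 21, 3 and 5. Of the higher sequences shown, Snrnp35 and Camp had 10 and 2 CpG sites. The C/EBP letters TTGCNNAA were found on either strand in 7.41% (Wilson 95% interval 2.92 to 17.6) of the higher and 30.0% (16.7 to 47.9) of the lower promoters. They were in 19.5% (15.5 to 24.2) of the 313 promoters with any compared region in the window, which lies inside the interval of the lower ones, and in 9.60% of all. The TCF letters TCAAAG were in 7.41% (2.92 to 17.6) of the higher, 26.7% (14.2 to 44.4) of the lower promoters, in 12.8% of those with any compared region and in 14.3% of all. The DR1 repeat, the core site of PPARγ with its partner RXR, was in 2 of the 54 higher and 0 of the 30 lower promoters, in 1.60% of those with any compared region and in 0.350% of all. GC content differs between the groups, and its part in the motif shares and in the read counts was not tested. A match describes letters and not a bound site.

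The regions most in excess in BAT were picked for few eWAT reads relative to BAT, and most of them also had few reads in iWAT. The first was in intron 2 of Igf1r, the receptor of insulin-like growth factor 1, at chr7:75169624-75169854, and reached 108 scaled reads in BAT against 1.77 in eWAT and 3.68 in iWAT, a centred log2 ratio of 7.31 (5.36 to 10.41). Also among the 8 farthest in this direction were regions in intron 1 of Iqsec1, a guanine exchange factor gene (241, 11.5 and 72.0 in BAT, eWAT and iWAT), and 36.8 kb upstream of Mapk4, a kinase gene (199, 9.71 and 8.93). A region upstream of Pde8a, a cAMP phosphodiesterase gene, had 99.6 in BAT against 3.53 in eWAT, with 5.78 in iWAT. The region assigned to Gm12830 had 44.2 in BAT and 0 in eWAT, at least 43.5-fold higher relative to the centre. Among these the Iqsec1 region alone passed 15 scaled reads in iWAT.

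At the other end the regions had no BAT read at all. The first, 82.1 kb upstream of Pkn2, a kinase gene, at chr3:142626934-142627164, had 223 scaled reads in eWAT, with 49.4 in iWAT, at least 10.3-fold lower in BAT relative to the centre and at least 26.8-fold on the deposited scale. An intron of Gtf2h3, which encodes a subunit of the general transcription factor TFIIH, had 213 in eWAT and 80.4 in iWAT. A region upstream of Wdr11 had 203 in eWAT and 87.8 in iWAT. Ly86, whose product pairs with a Toll-like receptor relative in immune cells, had a distant region with 185 in eWAT and 96.7 in iWAT. An intron of Alad, an enzyme of haem synthesis, had 170 in eWAT but 4.73 in iWAT, close to its input value of 5.21. A distant region at Pcdh9, a cadherin gene, had 155 in eWAT and 160 in iWAT. The white depots thus lay close together at Pcdh9 and far apart at Alad.

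Of 12296 genes with a compared region within 50 kb, 8168 had a mean of at least 30 scaled reads and were measured. Of these, 985 (12.1%) were higher in BAT and 1225 (15%) lower, and the middle 80% of genes spanned centred log2 ratios of -1.54 to 1.10. The whole interval lay above 0 under each of 5 scalings, including the deposited one, for 138 genes (1.69%) and below 0 for 755 (9.24%). Such genes are said below to be higher or lower under every scaling. The median gene stood at -1.57 under the deposited scaling and at 0.37 under the one at the other end. A higher gene therefore had to lie farther from the median gene than a lower one, and the 2 counts do not compare the directions. Of the lower genes 1128 had no region on the BAT list, and 468 of the called genes rest on 1 region. The ratio moved with the strength of the gene: the median was -0.32 in the weakest quintile of genes and 0.24 in the strongest, and 18.8% and 4.65% of those quintiles were called lower. Counts and medians of the gene lists below carry that trend with them, and each count is to be read against the 12.1% higher and 15% lower over all genes. The distance of a list's median from the median gene is the same under each scaling, but the calls are not. On the deposited scale at most 1 gene of any list was called higher, and 0.930% of all genes.

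Slc2a6, a lysosomal hexose transporter gene, was the second gene most in excess in BAT, with 188 scaled reads in BAT against 20.3 in eWAT, with 23.6 in iWAT, 27.5-fold higher relative to the median gene and 9.26-fold on the deposited scale. Akap4, an anchor protein gene of sperm on the X chromosome, came first with 60.8 in BAT and 2.65 in eWAT (3 reads), a log2 ratio of 6.09 (4.36 to 8.48). Fam189a1 had 382 in BAT against 50.3 in eWAT, with 67.3 in iWAT over 2 regions, both called higher. Ncs1, a neuronal calcium sensor gene, had 312, 68.9 and 77.3, and Cnnm1 169, 23.8 and 34.7. In each of these genes BAT also stood above iWAT, which was not used in the ranking. Lgr5, the R-spondin receptor and Wnt target, differed in pattern with 71.9 in BAT against 7.95 in eWAT, with 213 in iWAT.

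The genes most in deficit in BAT had 0 or 1 BAT read. Gtf2h3 had 0 against 213 scaled reads in eWAT, at least 8.64-fold lower relative to the median gene. Wnk2, a kinase gene, had 0 against 196 in eWAT over 2 regions, both called lower, and 34.2 in iWAT. Fcrls, an Fc-receptor-like gene of myeloid cells, had 0 against 143, with 36.8 in iWAT. Nlrp3, which encodes the inflammasome sensor, had 2.77 (1 read) against 185, with 97.2 in iWAT, a log2 ratio of -4.49 (-9.80 to -1.996). Rbm20, a splicing regulator of muscle genes, had 2.77 against 200.5 in eWAT and 111 in iWAT, and Rgs17, a regulator of G-protein signalling, had 0 against 133 with 5.26 in iWAT. All 10 genes farthest in this direction were lower under every scaling. They were picked for interval bounds far below 0, so this adds nothing to the ranking.

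**Figure D3:**
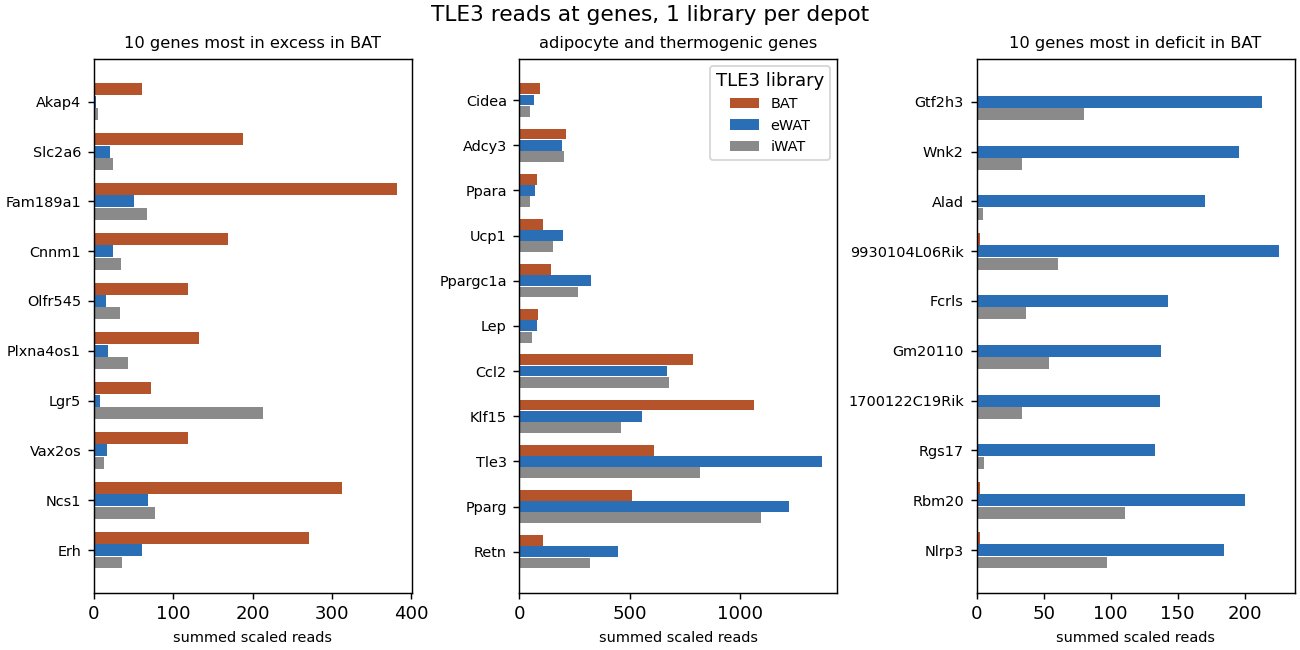
Summed TLE3 scaled reads within 50 kb of each gene in the BAT (brown), eWAT (blue) and iWAT (grey) libraries, 1 library per depot and no error bars, on linear axes that start at 0. Left are the 10 genes most in excess in BAT, where Fam189a1 reaches 382 in BAT; the centre holds adipocyte and thermogenic genes, where Klf15 reaches 1062; right are the 10 most in deficit, with 0 or 2.77 in BAT.

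Thermogenic genes leaned to BAT relative to the median gene, but Ucp1 and Ppargc1a did not reach the call. Of the 45 listed brown and beige genes 29 had a region and 22 were measured. 9 were called higher (12.1% over all genes), 0 lower (15% over all genes), and the list median was 0.54 against 0 for all genes. No member was higher under every scaling. On the deposited scale 0 were higher and 11 lower, where 0.930% of all genes were higher and 74.3% lower. The list median there was -1.03 against -1.57 for all genes. With a minimum of 100 scaled reads per gene the list had 3 higher and 1 lower (7.68% and 11.1% over all genes). Within 10 kb of start sites it had 4 higher and 1 lower (14.1% and 15.4% over all genes). Cidea, a lipid-droplet protein gene typical of brown fat, had 91.3 scaled reads in BAT against 68.0 in eWAT, with 48.9 in iWAT, a centred log2 ratio of 1.99 (1.36 to 2.60). Adcy3, an adenylyl cyclase gene, had 210.2 in BAT against 191 in eWAT, with 203 in iWAT, a ratio of 1.71 (1.31 to 2.09). Ppara, the receptor that drives fatty acid oxidation, had 80.2, 72.4 and 49.9. These 3 had the higher raw value in BAT, with small margins at Adcy3 and Ppara.

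Ebf2, the factor that marks brown preadipocytes, was called at 1.42 (1.06 to 1.77) although its scaled reads were lower in BAT, at 235 against 260.5 in eWAT and 360.0 in iWAT. Dio2, the deiodinase that activates thyroid hormone, likewise passed at 1.02 (0.17 to 1.79) with 47.0 in BAT against 68.9 in eWAT, with 110 in iWAT. Ucp1, the uncoupling protein itself, was not called: its sum was 105 in BAT against 195 in eWAT, with 153 in iWAT, a ratio of 0.68 (0.14 to 1.18). Its regions differed among themselves. The region 2.46 kb upstream of the start, at chr8:85811676-85811906, had 44.2 scaled reads in BAT against 25.6 in eWAT, with 23.1 in iWAT, a ratio of 2.17 (1.19 to 3.09), and was called higher. The stronger region 11.7 kb upstream had 58.1, 147 and 117, a ratio of 0.04 (-0.68 to 0.70). Ppargc1a, the coactivator of mitochondrial biogenesis, had 144 in BAT and 325 in eWAT, a ratio of 0.39 (-0.05 to 0.82). Zic1, a brown-fat lineage marker, had 27.7 in BAT against 3.53 in eWAT, with 1.05 in iWAT, and Kcnk3, a potassium channel gene, had 33.2, 0 and 1.05, both below the gene minimum. Prdm16 was not the nearest gene of any region, and Hoxc10, a patterning gene of white fat, had none within 50 kb.

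No white-selective gene was called lower in BAT relative to the median gene. Of 27 listed, 16 were measured, with 3 called higher in BAT (18.8%, against 12.1% over all genes) and 0 lower (15% over all genes). The list median was -0.20. The lower calls rose to 1 when centred on the strongest regions, where 19.3% of all genes were lower. They rose to 8 when centred on regions of both lists (43.45% of all genes) and to 13 on the deposited scale (74.3% of all genes). The leptin gene Lep had 85.7 scaled reads in BAT against 77.7 in eWAT, with 56.2 in iWAT, a ratio of 1.71 (1.07 to 2.32). Its promoter region, 226 bp upstream of the start, had 27.7 in BAT against 8.83 in eWAT, with 4.2 in iWAT. Ccl2, which encodes a chemokine that recruits monocytes, had 785 in BAT against 668 in eWAT, with 679 in iWAT, a ratio of 1.80 (1.60 to 2.00), and was higher under every scaling. Of its 8 regions 2 were called higher, 28.6 and 12.9 kb upstream, with 395 and 224 in BAT against 215 and 68.0 in eWAT. The Ccl2 promoter region, 180 bp upstream, had 41.5 in BAT against 92.7 in eWAT and was not called. Retn, the resistin gene, leaned the other way with 108 in BAT against 445 in eWAT, with 320 in iWAT, a ratio of -0.47 (-0.98 to -0.00) that was not called. Its promoter region 773 bp upstream, at chr8:3654882-3655112, was called lower with 19.4, 133 and 134. In scaled reads BAT was thus below both white depots at Retn and above both at Lep.

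Depot patterning factors included Tbx15, which was higher in BAT under every scaling. Of 51 listed 24 were measured, 7 higher (29.2%, against 12.1% over all genes) and 1 lower (4.17% against 15%), with a median of 0.35. Within 10 kb of start sites the median turned to -0.38, with 1 higher and 2 lower (14.1% and 15.4% over all genes). Tbx15, a T-box factor, had 149 scaled reads in BAT against 32.7 in eWAT, with 391 in iWAT, a ratio of 3.76 (3.13 to 4.41). Of its 6 regions within 50 kb, 5 were called higher, each with 0 to 3.53 in eWAT and 22.1 to 41.5 in BAT. All 5 were on the BAT list and not on the eWAT list. Of the 3178 such regions 3127 were called higher, so these calls add little to how the regions entered. At any distance 9 of 11 regions with Tbx15 as nearest gene were called higher (11.9% over all regions) and 0 lower (9.04% over all regions). Over the whole gene iWAT was highest and eWAT lowest. The factor gene Ebf3 (77.4 in BAT, 88.3 in eWAT, 210 in iWAT) was also highest in iWAT, and was called higher although lower in BAT on the deposited scale. Within the HOXA cluster, Hoxa4 had 96.8 in BAT and 95.4 in eWAT and was called higher, whereas Hoxa5, also chosen after its values were seen, was lower under every scaling with 22.1 in BAT against 183 in eWAT, with 26.8 in iWAT.

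**Figure D4:**
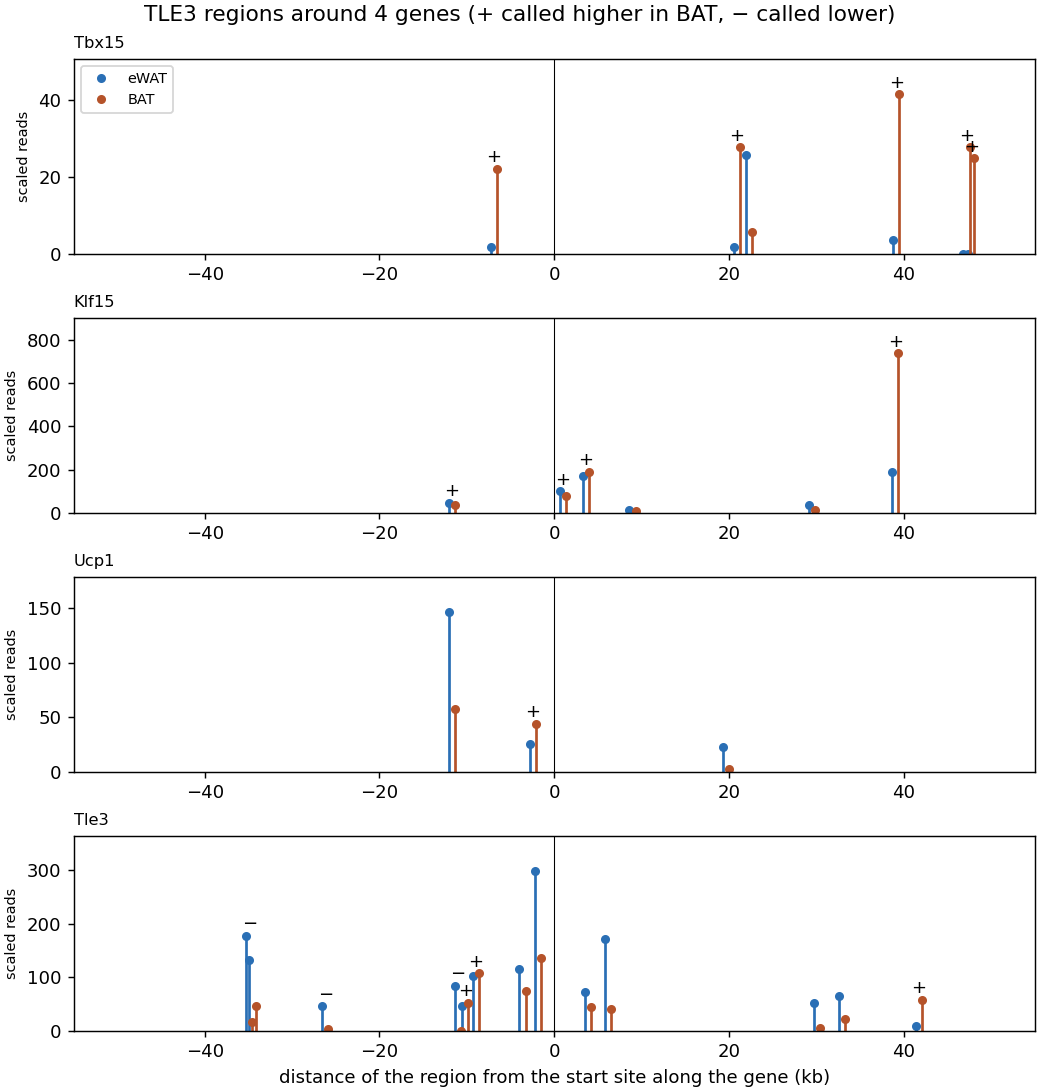
TLE3 scaled reads of each region within 50 kb of Tbx15, Klf15, Ucp1 and Tle3 against its distance from the start site in kb, with eWAT in blue and BAT in brown drawn side by side with a small offset. A plus marks a region called higher in BAT and a minus one called lower; 5 of 6 Tbx15 regions carry a plus, and Tle3 has 3 of each.

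Genes that define adipocytes were bound in both depots. Pparg had 512 scaled reads in BAT against 1221 in eWAT, and 1092 in iWAT over 21 regions, Adipoq 111, 338 and 332, and Fabp4 111, 244 and 158. None of these 3 was called, and their ratios were 0.32 (0.09 to 0.54), -0.04 (-0.55 to 0.43) and 0.43 (-0.08 to 0.91). Of 34 measured identity and lipid-storage genes, out of 40 listed, 5 were higher (14.7%, against 12.1% over all genes) and 1 lower (2.94% against 15%), with a median of 0.34. Centred on the strongest regions, 2 were higher and 2 lower (8.77% and 19.3% over all genes). Acacb, the acetyl-CoA carboxylase that controls entry of fatty acids into mitochondria, had 155 in BAT against 94.5 in eWAT, with 91.4 in iWAT, and was higher under every scaling. Most of it came from a region in intron 1 with 91.3 in BAT against 10.6 in eWAT, with 4.2 in iWAT. Aqp7, the glycerol channel gene, had 52.5, 39.7 and 49.9. Pck1, which encodes the enzyme of glyceroneogenesis and was chosen after its values were seen, was the 1 lower gene with 5.53 in BAT against 90.95 in eWAT, with 56.2 in iWAT, under every scaling.

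Among transcription factors and coregulators, 4 of 32 measured were higher (12.5%, against 12.1% over all genes) and 4 lower (12.5% against 15%), with a median of 0.14. The list was thus at the background share. Klf15 had 1062 scaled reads in BAT against 555 in eWAT, with 460 in iWAT, a ratio of 2.51 (2.32 to 2.69). Of its 6 regions 4 were called higher (11.9% over all regions). Most of its BAT reads came from the region 39.0 kb downstream, with 738 in BAT against 187 in eWAT. Against it stood Ctbp2, another corepressor gene, with 16.6 in BAT against 229 in eWAT, with 111 in iWAT, a ratio of -2.21 (-3.67 to -1.07). Cebpd, the early adipogenic C/EBP factor gene, had 0, 62.7 and 25.2, at least 2.54-fold lower relative to the median gene. Klf3, which encodes a repressor that recruits CtBP and was chosen after its values were seen, had 19.4, 188 and 154. Klf15 was higher and these 3 genes lower under every scaling.

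TLE3 bound near its own gene and its relatives. Tle3 had 608 scaled reads in BAT against 1371 in eWAT, with 816 in iWAT over 13 regions, a ratio of 0.40 (0.19 to 0.60), not called. Inside the locus 3 regions were higher and 3 lower. The region 11.0 kb upstream of the start had 0 in BAT against 83.9 in eWAT, with 26.8 in iWAT, whereas the one 8.98 kb upstream had 108, 102 and 88.8. A region 41.8 kb inside the gene had 58.1 in BAT against 8.83 in eWAT, with 7.88 in iWAT. Of 5 measured Groucho genes 2 were called higher (12.1% over all genes) and 0 lower (15% over all genes). They were Tle4 and Tle6, at 1.53 (1.12 to 1.93) and 1.39 (1.00 to 1.77). Both were slightly lower in BAT in scaled reads (188 against 193, and 207 against 235).

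Among genes of energy metabolism calls were near or below the shares over all genes (12.1% higher, 15% lower). Of 17 measured respiratory-chain subunit genes, out of 61 listed, 1 was higher (5.88%) and 2 lower (11.8%), with a median of -0.02. Atp5g1, a subunit of the ATP synthase rotor, had 354 scaled reads in BAT against 159 in eWAT, with 138 in iWAT, a ratio of 2.73 (2.39 to 3.06), with both its regions higher and under every scaling. Uqcrc1, a subunit of complex III, had 2.77 (1 read), 130 and 108, a ratio of -3.98 (-9.30 to -1.48). Of 13 measured fatty acid oxidation genes 2 were higher (15.4%) and 1 lower (7.69%), with a median of 0.10. That 1 was Hadh, the hydroxyacyl-CoA dehydrogenase gene, with 13.8, 116 and 81.5. Of 29 genes of glucose uptake, glycolysis and insulin signalling 4 were higher (13.8%) and 1 lower (3.45%), with a median of 0.11. Grb14, an inhibitor of the insulin receptor, had 55.3 in BAT against 8.83 in eWAT, with 32.1 in iWAT, and Pik3cb, a catalytic subunit of PI3-kinase, had 11.1, 213 and 59.4. Grb14 was higher and Pik3cb lower under every scaling.

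For signalling, 4 of 19 measured Wnt-TCF and Notch genes were higher (21.1%, against 12.1% over all genes) and 1 lower (5.26% against 15%). The list median was 0.36. Beside Lgr5, Heyl, a Notch target repressor gene, had 329 scaled reads in BAT against 240 in eWAT, with 184 in iWAT, a ratio of 2.02 (1.70 to 2.34). Wnt5a, a Wnt ligand gene chosen after its values were seen, was the lower one with 8.30, 115 and 143 in BAT, eWAT and iWAT, a ratio of -2.22 (-4.52 to -0.64). Of 21 adrenergic and cAMP genes 4 were higher (19.0%, against 12.1% over all genes) and 0 lower (15% over all genes). Their median of 0.33 turned to -0.11, with 0 higher (14.1% over all genes), within 10 kb of start sites. Adra1a, an alpha-adrenergic receptor gene, had 71.9 in BAT against 47.7 in eWAT, with 37.8 in iWAT. Adrb1, the beta-1 receptor gene, was called at 1.24 (0.90 to 1.57) although it was lower in BAT on the deposited scale, at 257 against 323 in eWAT. The beta-3 receptor gene Adrb3, chosen after its values were seen, had 35.9, 127 and 82.5 and was not called.

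**Figure D5:**
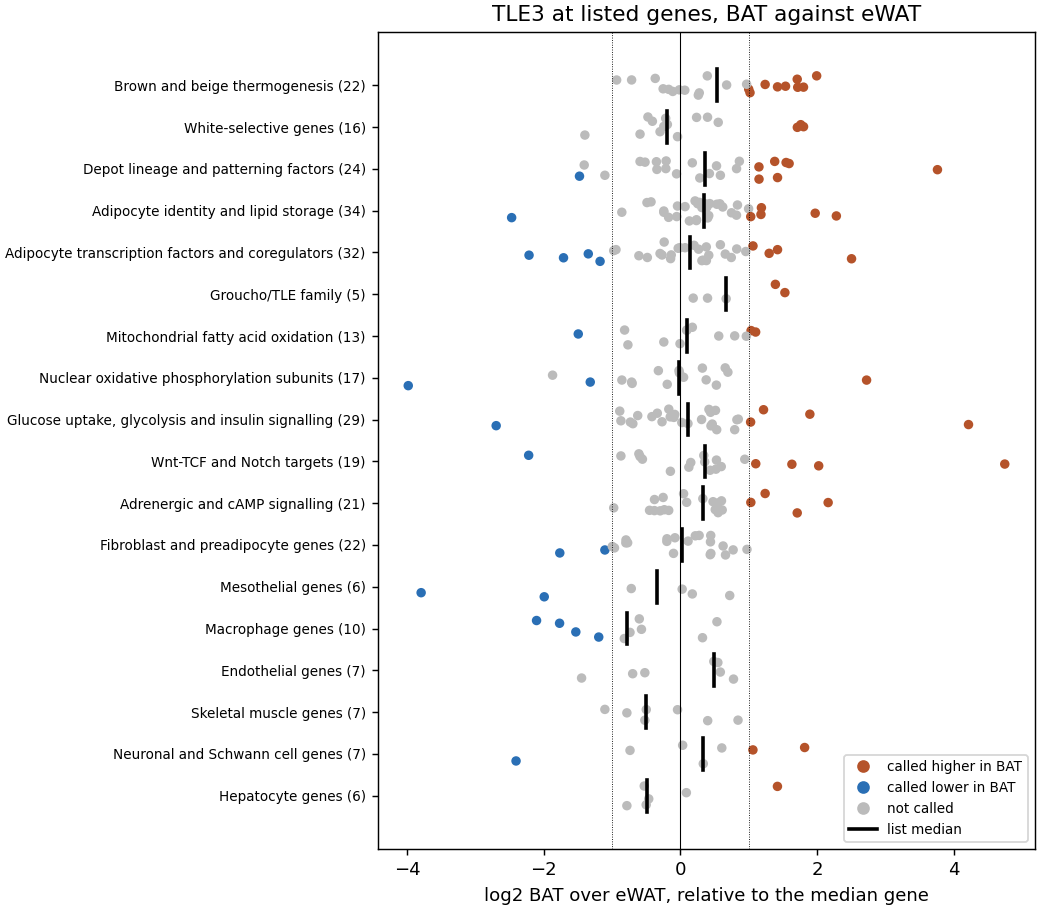
Log2 ratio of TLE3 scaled reads in BAT over eWAT, relative to the median gene, for each measured gene (points) of 18 gene lists, with the number measured in brackets and the list median as a black bar; genes with 0 BAT reads stand at the bound that 3 reads give. Dotted lines mark 2-fold. The thermogenesis list has its median at 0.54 with 9 genes called higher, and the macrophage list has its median at -0.78 with 4 called lower.

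Macrophage genes leaned below the median gene in BAT. Of 17 listed macrophage genes 15 had a region and 10 were measured, 0 higher (12.1% over all genes) and 4 lower (15% over all genes, 18.8% in the weakest quintile), with a median of -0.78. The sum over the 10 measured was 346 scaled reads in BAT against 1338 in eWAT, with 806 in iWAT. That was a centred ratio of -0.38 (-0.66 to -0.12), and 2 of the 10 genes stood above 0. Over all 15 with a region the sum was 351, 1534 and 861, a ratio of -0.56 (-0.83 to -0.30). With a minimum of 100 scaled reads 0 macrophage genes were called lower (11.1% over all genes) and the median was -0.19. Adgre1, the F4/80 antigen gene, had 0 in BAT against 42.4 in eWAT, with 7.36 in iWAT, and Lyz2, Tyrobp and Cd163 were also at 0 in BAT. Of these 4 only Cd163 reached the gene minimum. Among all 8168 measured genes 97 had no BAT read. A gene with no BAT read entered only through the eWAT list, so its eWAT value could not be 0. Csf1r, the receptor for macrophage colony-stimulating factor, had 13.8, 60.9 and 32.6, and Cx3cr1, the fractalkine receptor gene, 19.4, 166 and 127. The part of macrophages in the results at Nlrp3, Fcrls, Ly86, Clec12a and Olr1 above was not tested. Of 6 measured mesothelial genes 0 were higher (12.1% over all genes) and 2 lower (33.3%, against 15% over all genes). Their median was -0.35, and 3 of the 6 stood above 0. The lower ones were Cdh1 and Msln, the genes of E-cadherin and mesothelin. Cdh1 had 2.77 in BAT against 114 in eWAT, with 49.9 in iWAT, and Msln 5.53, 65.3 and 18.4. Wt1, the usual marker of visceral fat stroma, had 58.1 in BAT against 153 in eWAT, with 203 in iWAT, a ratio of 0.17 (-0.55 to 0.83), and was not called.

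Fibroblast and preadipocyte genes stood near the centre, with 0 of 22 higher (12.1% over all genes), 2 lower (15% over all genes) and a median of 0.02. The lower ones were Pi16, a marker of fibroblast progenitors (13.8 in BAT against 140 in eWAT, with 35.7 in iWAT), and Fbn1, the fibrillin gene (35.9, 230 and 229). Of 7 endothelial and 7 skeletal muscle genes measured none was called, with medians of 0.49 and -0.50. Among neuronal genes 2 of 7 were higher and 1 lower, and among hepatocyte genes 1 of 6 was higher. Binding near a marker gene does not count the cells that express it.

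Called regions of a gene went one way in some genes and both ways in others. Of 6341 genes with a called region at any distance, 2536 had at least 2. In 1376 of those (54.3%) there were both higher and lower regions, in 723 only higher and in 437 only lower. Of all called regions 56.8% were higher, and no tendency of neighbours to oppose each other is read from these counts. Tle3 is one of the first kind, while Klf15 and Tbx15 had higher calls and no lower ones within 50 kb.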

How the data were processed

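The deposited signal values are normalized read numbers per region that the authors made, with a HOMER-style header, 1 row per region; STAR and HOMER are named for the mm9 build in the submitters' processing notes, and no source used here states the calling and merging of peaks. The deposited peak score is 0 throughout as the authors left it, and was not used. Every value was a whole multiple of a fixed step in its library, to within 0.1 of a read, and reads behind a value were taken from that step. Totals per library rest on the assumption of a scale of 10 M reads.

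Lists were joined by region name. Ratios were BAT over eWAT, with 95% intervals by the exact Clopper-Pearson method; shares have Wilson intervals. Reads without molecular identifiers are not independent molecules. A value of 0 was replaced by 3 reads to give a bound. The rule for called regions and genes is in the text, and the calling script was tested on simulated data. Named genes are the 10 with the interval bound farthest from 0 in each direction, up to 4 called genes in each of 18 lists (499 genes; the 2 with most reads where fewer than 2 were called), and 13 fixed genes (Ucp1, Ppargc1a, Cidea, Dio2, Prdm16, Ebf2, Zic1, Tbx15, Hoxc10, Lep, Retn, Pparg and Tle3). Adipoq, Fabp4, Kcnk3, Adgre1, Lyz2, Tyrobp, Csf1r and Wt1 fall outside this rule and were chosen after their values were seen, as were the genes marked so in the text. Named regions are the 8 farthest in each direction and the 5 highest of each library. The members and lists were chosen with earlier results of these data known. Alternatives were other scalings, thresholds, minimums, distances, the strongest region, input subtraction and an exact binomial test. Python 3.11.15, numpy 2.4.6, pandas 2.3.3, scipy 1.17.1 and matplotlib 3.10.9 were used.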

Additional observations from a re-analysis of the deposited data

How the results depend on the processing

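No paired analysis was possible because each depot has 1 library. The scaling sets the balance of the calls. With the authors' scaling 1990 regions were higher and 32359 lower in BAT, and 76 genes higher and 6065 lower; scaled on the regions listed in both, 3521 and 15011 regions and 237 and 3549 genes; scaled on all regions listed in either, 10384 and 1484 regions and 1812 and 642 genes. Centred on the strongest 25% of regions, 716 genes were higher and 1580 lower. At 4-fold there were 3381 higher and 2587 lower regions, 195 and 457 genes, and 6.122% of the higher regions lay within 1 kb of a start. Fewer regions or genes were tested with a region minimum of 30 scaled reads (3565 higher), the strongest 25% of regions (2047 and 2337), a gene minimum of 100 (256 and 369) and a 10 kb limit (566 and 621), and more genes with a minimum of 10 (1685 higher). An exact binomial test with Benjamini-Hochberg adjustment left 2784 lower regions. The count of lower regions at the 30-read minimum (4898), the higher count under the binomial test (5469), and the counts with input subtracted, at any distance and for the strongest region stayed within 1.5 times.

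On the authors' scale 591 of the 985 genes called higher had a negative log2 ratio, among them 15 of the genes chosen by the naming rule: Ebf2 -0.1484, Ebf3 -0.1897, Cav1 -0.3909, Scd1 -0.5406, Tle4 -0.04052, Tle6 -0.1797, Acadl -0.5354, Acaa1b -0.4687, Irs1 -0.3532, Dkk3 -0.4669, Adrb1 -0.3297, Mapk14 -0.5391, Rbfox3 -0.5085, Ahsg -0.1497 and Dio2 -0.5511. Of the BAT and eWAT lists, 81.85% and 20.69% were shared above 30 scaled reads, and 43.03% of each at equal list size. Among regions on both lists the strongest 1000 shared 50.8%. Depth in BAT limits lower calls: 3 reads are 8.30 scaled reads there, and no replicate gives a spread between cultures.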

Other observations

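Some genes gathered many called regions at any distance, and the genes named here were picked for that after the values were seen. They were picked by count and not by share, so genes with many regions come first. Over all regions 11.9% were higher and 9.04% lower. Rybp, which encodes a component of Polycomb repressive complex 1, had 15 higher and 2 lower regions of 35, with sums of 2295 scaled reads in BAT against 2707 in eWAT. Jag1, a Notch ligand gene, had 10 higher and 2 lower of 35, and Axin2, a Wnt target and inhibitor, 8 higher and 1 lower of 20, with 874 in BAT against 1324 in eWAT. In all 3 the sum in BAT was lower on the deposited scale. At the other end Cops8, a signalosome subunit gene, had 2 higher and 9 lower of 29, and the muscarinic receptor gene Chrm3 had 0 higher and 7 lower of 31, with 130 in BAT against 1281 in eWAT and 905 in iWAT. Zfp608, a zinc-finger gene with 69 regions, had 9 of each.

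The X chromosome, present once in male cells, had fewer lower calls than the autosomes: 4.59% (Wilson 95% interval 3.59 to 5.87) of its 1306 regions, against 7.75% to 10.4% on each autosome. Its regions were also weaker, with a median mean value of 16.5 scaled reads, where the autosomes had 21.0 to 23.6; the part of strength in the share of lower calls was not tested. Higher calls took 10.8% on X and 10.2% to 13.3% on the autosomes.

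Regions on the iWAT list alone were not compared. These 15406 regions had medians of 2.77 scaled reads for BAT, 8.83 for eWAT and 26.3 for iWAT, and 30.5% of them had 0 reads in BAT.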
